A study of Mus musculus with 12 samples.

Results

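The Hox genes are homeobox transcription factors that lie in 4 clusters and give cells their place along the body axis. All genes of the expression table whose symbol is Hoxa, Hoxb, Hoxc or Hoxd followed by a paralogue number were taken, which gave 39 of the 55401 genes listed. By cluster these were 11 HoxA, 10 HoxB, 9 HoxC and 9 HoxD genes. The choice used names only and no measured value.

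Within a cluster, the order of the genes along the chromosome follows the order of the body regions in which the embryo switches them on, a property called collinearity. Genes at the 3′ end, with low paralogue numbers, act at the level of the hindbrain and neck, and genes at the 5′ end, with high numbers, act in the lumbar and tail region and the ends of the limbs. Fibroblasts and other connective tissue cells keep much of this pattern in the adult, so the set of Hox genes that a tissue expresses is a record of where it came from. The neural crest that forms the jaws and most of the face is known for expressing no Hox genes, and Hoxa2 is the gene that sets the arch behind the jaw apart from it.

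The study asked how a fusion protein of the cytokine IL-10 and an antibody to the macrophage receptor CSF1R acts on tumours. Bulk mRNA was sequenced from 12 tumours, labelled as orthotopic oral tumours grown from MTC-Q1, a mouse oral cancer line, in C57BL/6 mice, which the methods give as 6 to 8 weeks old. The methods name a luciferase-expressing subline of MTC-Q1 and injection into the lining of the cheek. The 4 groups of 3 libraries were Ctrl-IgG (control isotype IgG1-Fc), aCSF1R (the CSF1R antibody), IL-10-Fc (IL-10 joined to an antibody Fc part) and BF10 (the fusion of both). By their labels, all groups shared the mouse strain, the tumour line, the injection and a start of treatment at 100 mm3, while the labels disagree on the number of doses, with 4 in the design text and 6 in the protocol. The labels do not say that libraries came from separate mice, so the p-values below measure the spread between these libraries. IL-10 is thus present in 6 libraries (IL-10-Fc and BF10) and absent from 6 (Ctrl-IgG and aCSF1R), and the comparisons below are built on these sides.

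Several genes outside the Hox clusters went against the shared label, and they split the 12 libraries along the same line. Xist, transcribed from the inactive X chromosome of female cells, was at most 0.04 FPKM (fragments per kilobase of transcript, scaled to the size of the library) in the 6 libraries without IL-10 and 17.1 to 30.7 FPKM in the 6 with it. The Y-linked gene Eif2s3y was 4.23 to 11.3 FPKM without IL-10, listed at 0 in the 3 IL-10-Fc libraries, and at 0.05, 0 and 3.29 FPKM in the BF10 libraries. H2-Ea, a class II gene that C57BL/6 mice are known not to transcribe, was 0.04 to 0.27 FPKM without IL-10 and 553 to 1727 FPKM with it. The summed level of the simple epithelium markers Krt8, Krt18, Krt19 and Epcam was 0.49 to 3.78 FPKM without IL-10 and 505 to 1314 FPKM with it. By the test described below, 4 of 4 were called higher (14.6% of all genes tested were). They passed its filter through the side with IL-10 alone, so these calls add nothing to that selection. The study also grew 4T1 breast tumours in BALB/c mice. Whether the libraries labelled BF10 and IL-10-Fc come from the labelled tumour was not tested, and the agent, the mouse and the tumour cannot be told apart between the sides, so every direction below is a direction between libraries as labelled.

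Lists of other cell type markers moved with the sides in part. The called counts in this paragraph stand beside 14.6% called higher and 28.6% called lower among all genes tested. The 8 fibroblast markers summed to 178 to 634 FPKM without IL-10 and 1030.3 to 2357 FPKM with it (5 called higher, 1 lower). The 8 leukocyte markers summed to 59.3 to 219 and 396 to 1980.2 FPKM (3 of 7 tested higher). Among them, S100a8 alone was 16.2 to 165 FPKM without IL-10 and 195 to 1892 FPKM with it. Csf1r and Ptprc were also called higher, while Cd3e, Cd8a, Itgax and Adgre1 were not called. The 7 skeletal muscle markers summed to 14.4 to 770.4 and 3.11 to 68.3 FPKM (5 lower). Adipocyte markers summed to 42.5 to 63.7 and 38.6 to 569 FPKM (3 of 4 tested higher) and mammary luminal markers to 4.87 to 13.04 and 11.7 to 36.1 FPKM (2 of 3 tested higher), with the milk protein gene Wap listed at 0 in all 12 libraries. The stratified epithelium markers, which define an oral squamous tissue, summed to 1.68 to 1984 FPKM without IL-10 and 17.7 to 33.2 FPKM with it (1 of 7 lower). The high muscle and stratified epithelium sums belonged to Ctrl-IgG replicate 3 and aCSF1R replicates 1 and 2 (499 to 770.4 and 1271 to 1984 FPKM), while the other 9 libraries were at most 68.3 and 33.2 FPKM. Endothelial markers (0 of 4 called) and salivary gland markers (0 of 1 tested) overlapped. The called muscle, adipocyte, mammary luminal and stratified epithelium markers passed the test's filter, 1 FPKM in at least 3 libraries, on 1 side alone. Their calls thus add nothing to that selection. The part of these cell types in the Hox values was not tested, and in bulk tissue fewer cells of a type and less RNA per cell cannot be told apart. The 4 libraries of highest FPKM sum were BF10 replicate 1, Ctrl-IgG replicate 2 and IL-10-Fc replicates 1 and 2. Mitochondrial genes held 6.57 to 9.04% of their sums and 2.99 to 3.61% of those of the other 8. The library titles also carry a code whose meaning is not given, and code 6 alone was shared between groups, by BF10 replicate 2 and the third replicates of IL-10-Fc and aCSF1R. Within code 6, Hoxa5 was 57.2 and 51.9 FPKM with IL-10 and 4.16 FPKM without it, and Hoxd13 0 and 0.03 FPKM with IL-10 and 8.79 FPKM without it.

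The 4 clusters lie on different chromosomes of the mouse genome (GRCm38). HoxA lies on chromosome 6 on the minus strand, HoxB spans chr11:96194316-96368256, HoxC chr15:102921103-103036852 and HoxD chr2:74668310-74765142, all 3 on the plus strand. The HoxA gene Hoxa5 (chr6:52201754-52204587) and the HoxD gene Hoxd13 (chr2:74668310-74671599) moved most between the sides on the log2(FPKM + 1) scale, in opposite directions, and Hoxa2 (chr6:52162417-52164831) and Hoxd10 (chr2:74691924-74695105) came next in their directions. The 250 bases before the start of these genes are shown so that members that moved against each other can be compared in sequence. They are RefSeq sequences of GRCm38.p6, written 5′ to 3′ in the direction of the gene, ending at the base before the RefSeq start, which for Hoxd13 and Hoxd10 lies upstream of the GENCODE start given above. Capitals mark matches, on either strand, to 4 motifs, and adjoining matches run together. The first is the CCAAT box, spelled as its name. The second is the TATA box, searched as TATAAA. The third is the GC box, searched as GGGCGG, and the last is TGATNNAT, a form of the site that Pbx and Hox proteins bind together in many targets.
Hoxa5, chr6:52204588-52204837, minus strand: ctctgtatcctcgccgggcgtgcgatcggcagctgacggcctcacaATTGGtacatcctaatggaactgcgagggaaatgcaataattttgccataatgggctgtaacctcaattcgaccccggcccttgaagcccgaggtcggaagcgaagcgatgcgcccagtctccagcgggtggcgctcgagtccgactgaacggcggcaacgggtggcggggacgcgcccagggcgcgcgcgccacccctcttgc
Hoxa2, chr6:52164832-52165081, minus strand: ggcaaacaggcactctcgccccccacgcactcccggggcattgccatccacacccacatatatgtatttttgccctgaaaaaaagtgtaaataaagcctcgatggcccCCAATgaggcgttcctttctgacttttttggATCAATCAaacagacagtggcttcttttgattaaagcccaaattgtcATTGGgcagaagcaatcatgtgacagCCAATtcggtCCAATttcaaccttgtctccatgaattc
Hoxd13, chr2:74667975-74668224, plus strand: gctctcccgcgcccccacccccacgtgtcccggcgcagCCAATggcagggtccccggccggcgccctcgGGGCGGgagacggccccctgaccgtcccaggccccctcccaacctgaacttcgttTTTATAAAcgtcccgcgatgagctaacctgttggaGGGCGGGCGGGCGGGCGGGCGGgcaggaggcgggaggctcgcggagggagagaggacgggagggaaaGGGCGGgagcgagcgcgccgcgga
Hoxd10, chr2:74691641-74691890, plus strand: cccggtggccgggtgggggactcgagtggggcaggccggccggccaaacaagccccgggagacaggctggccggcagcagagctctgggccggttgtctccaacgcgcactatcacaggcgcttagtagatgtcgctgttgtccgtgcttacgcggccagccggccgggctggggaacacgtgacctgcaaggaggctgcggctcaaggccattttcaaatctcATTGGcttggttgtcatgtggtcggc

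The Hoxa2 promoter had the fewest CpG dinucleotides of these. It held 6 at 46.4% G and C, the same CpG number as the median of the 32536 promoters in the RefSeq table, while Hoxa5 held 28 (63.6%), Hoxd13 31 (74.4%) and Hoxd10 20 (65.6%). A CCAAT box was in all 4 windows and in 14 of the 22 Hox promoters in the table, against 33.8% of all promoters. The TATA box, in Hoxd13 alone of the 4, was in 4 of the 22 Hox promoters and 12.3% of all. GC boxes, which overlap each other in Hoxd13, were in 10 of 22 and 33.0%. The Pbx and Hox site, in Hoxa2 alone of the 4, was in 4 of 22 Hox promoters (Hoxa2, Hoxb1, Hoxb8 and Hoxd11) and 7.7% of all. The CCAAT box was thus present in the members that were higher and in those that were lower with IL-10.

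The first question was which Hox genes each group expressed, counting a gene as expressed from 1 FPKM. All 12 libraries expressed Hox genes, and the sets differed between the sides by position. The Ctrl-IgG libraries expressed 25, 17 and 25 of the 39 genes (mean 22.3 ± 4.62, SD, n = 3) and the aCSF1R libraries 24, 24 and 23 (23.7 ± 0.577, n = 3). The IL-10-Fc libraries expressed 12, 10 and 19 (13.7 ± 4.73, n = 3) and the BF10 libraries 15, 18 and 22 (18.3 ± 3.51, n = 3), so that the sides overlapped in number through Ctrl-IgG replicate 2, IL-10-Fc replicate 3 and BF10 replicates 2 and 3. The genes Hoxa5, Hoxa7, Hoxa9, Hoxa10, Hoxc6 and Hoxd8 were expressed in all 12 libraries, and 9 genes in none. Hoxa11, Hoxc4 and Hoxc5 were expressed in all 6 libraries without IL-10 and in none with it, and Hoxa2 was the reverse.

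**Figure D1:**
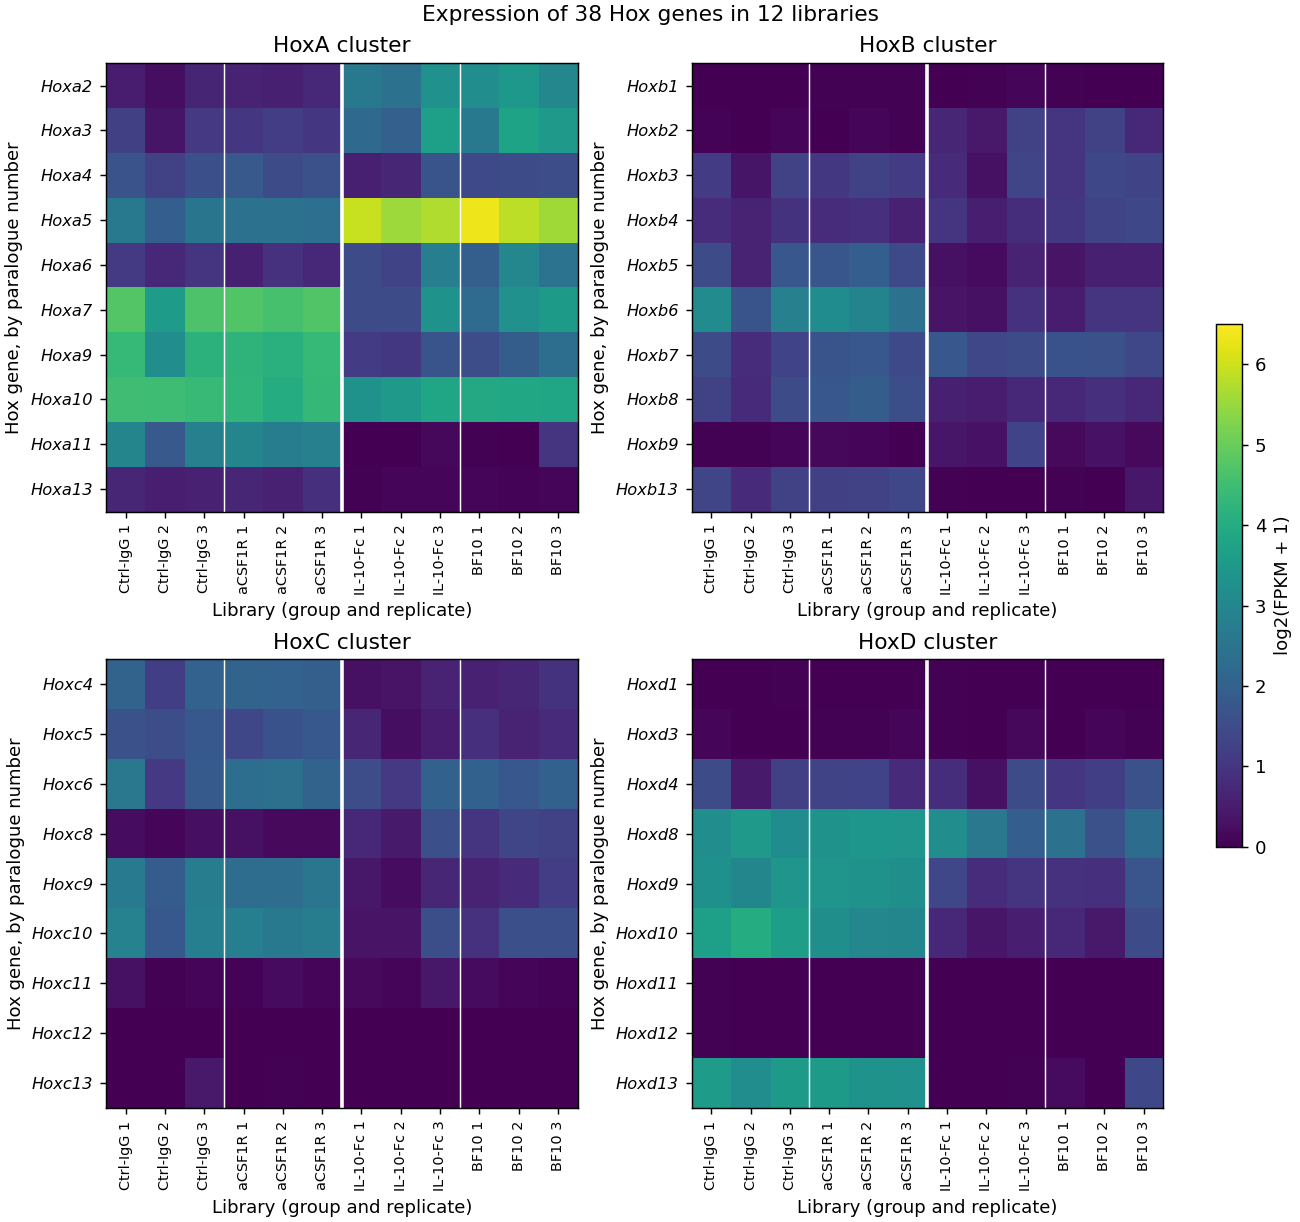
Level of 38 of the 39 Hox genes in each of the 12 libraries, as log2(FPKM + 1) in colour, 1 panel a cluster, with genes in paralogue order and libraries by group. The bright cells, which mark high levels, move from the high-numbered genes of HoxA and HoxD in the 6 Ctrl-IgG and aCSF1R libraries to Hoxa2, Hoxa3 and Hoxa5 in the 6 libraries labelled IL-10-Fc or BF10.

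The summed level of all Hox genes overlapped between the sides, at 106 to 168 FPKM without IL-10 and 81.7 to 139.8 FPKM with it, while its makeup did not overlap. Posterior genes (paralogues 9 to 13) made up 50.5 to 64.5% of the sum without IL-10 and 12.7 to 21.5% with it. Central genes (paralogues 4 to 8) made up 33.4 to 45.5% and 62.1 to 76.8%, and anterior genes (paralogues 1 to 3) 2.14 to 3.99% and 10.5 to 20.2%. The sides did not overlap in any of the 3 shares. The mean paralogue number, weighted by FPKM, was 8.11 to 8.80 without IL-10 and 5.49 to 5.99 with it. Different genes led the sides. Hoxa7 was the highest Hox gene in 5 of the 6 libraries without IL-10, and Hoxa10 in Ctrl-IgG replicate 2, at 15.7 to 20.1% of the Hox sum. With IL-10, Hoxa5 was the highest in all 6 and alone made up 35.5 to 57.4% of the sum. Hoxa5 is itself a central gene and held most of the central share in each library with IL-10. The higher central share thus rests largely on this 1 gene and not on the central genes as a class. The shares without Hoxa5 are not given here. These shares are ratios within a library and do not depend on how libraries were scaled to each other.

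**Figure D2:**
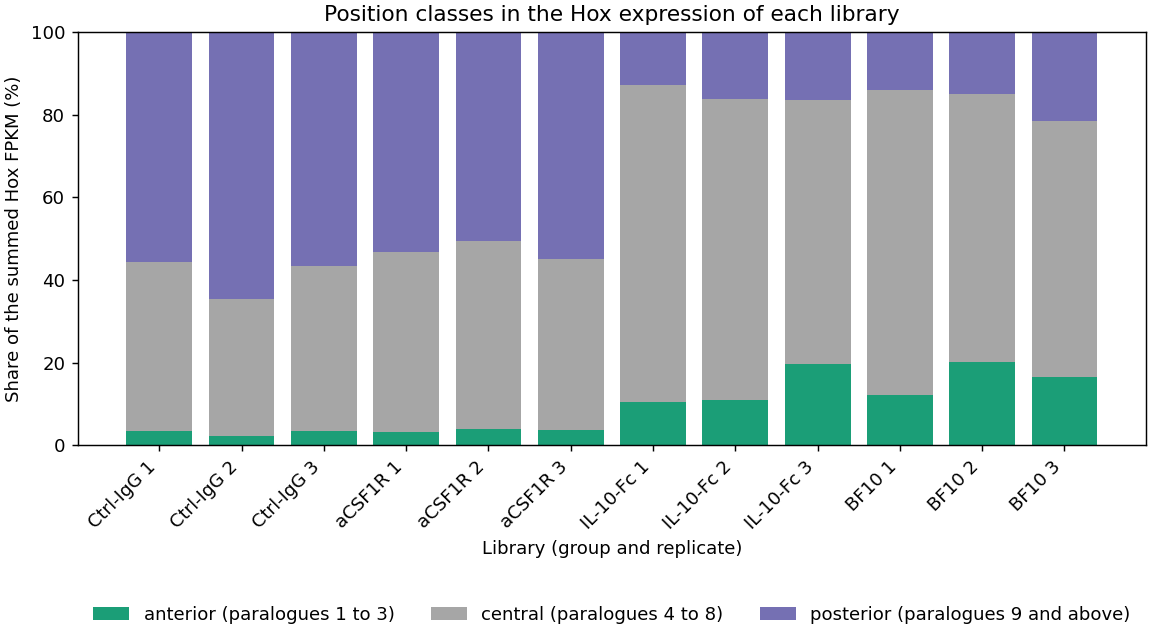
Share of the summed Hox FPKM of each library, in percent, held by anterior (paralogues 1 to 3), central (4 to 8) and posterior (9 to 13) genes, stacked to the whole, 1 bar a library. Posterior genes hold 50.5 to 64.5% in the 6 libraries without IL-10 and 12.7 to 21.5% in the 6 with it, with BF10 replicate 3 at the top of the lower range.

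The difference between the sides was tested for each gene with limma on log2(FPKM + 1) over all 15813 genes that reached 1 FPKM in at least 3 libraries. A call needed a Benjamini-Hochberg adjusted p below 0.05 together with a 1.5-fold difference. With IL-10, 6 of the 29 Hox genes tested were called higher (20.7%, against 14.6% of all genes tested) and 16 lower (55.2%, against 28.6%), and 7 were not called. The median log2 difference of the 29 was -0.78, beside -0.30 for all genes tested. That overall median was -0.43 after rescaling each library to the same sum (TPM) and -0.02 after median-of-ratios scaling. The 5 genes that reached 1 FPKM in 3 libraries with IL-10 only and the 10 that did so without IL-10 only were selected in favour of a difference, so calls among them add nothing to that selection. Of the 14 that reached it on both sides, 2 were higher and 6 lower, beside 14.6% and 28.6% of all genes tested. The higher calls were not above that share. It includes genes that passed on 1 side only, and the share among all genes passing on both sides was not taken. Among the 29, the 6 values of each side did not overlap for the 6 higher genes (20.7%, against 9.73% of all genes) and for 14 lower ones (48.3%, against 17.6%). Of these, only Hoxa3 and Hoxa5 among the higher and Hoxa7, Hoxa9, Hoxa10, Hoxc10 and Hoxd9 among the lower passed the filter on both sides. The others were selected in favour of a difference, so the excess over the share of all genes is partly built in.

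Called directions differed by position, in part through the filter. Of the 5 anterior genes tested (of 8), 3 were higher and none lower. The 15 central genes were all tested, with 3 higher and 7 lower, and the 9 posterior genes tested (of 16) were all lower. Among genes that passed the filter on both sides, 1 of 3 anterior genes was higher (Hoxa3), 1 of 7 central genes was higher (Hoxa5) and 2 were lower (Hoxa7 and Hoxd8), and 4 of 4 posterior genes were lower (Hoxa9, Hoxa10, Hoxc10 and Hoxd9). The 5 remaining posterior genes passed through the side without IL-10 alone. Among all genes tested, 14.6% were higher and 28.6% lower. In HoxA the direction of the calls changed once along the cluster, between Hoxa6 and Hoxa7. Hoxa2, Hoxa6 and Hoxa11 passed the filter on 1 side alone, so their calls add nothing to that selection. Among called HoxA genes that passed on both sides, Hoxa3 and Hoxa5 were higher and Hoxa7, Hoxa9 and Hoxa10 lower. HoxA had 4 higher and 4 lower genes of 10 tested, HoxB 1 and 4 of 8, HoxC 1 and 4 of 6, and HoxD 0 and 4 of 5. In HoxC the calls did not follow the order, since Hoxc4 and Hoxc5 were lower and Hoxc8, which lies behind them in number, was higher. Hoxc4, Hoxc5 and Hoxc8 each passed the filter on 1 side alone, so these calls add nothing to that selection.

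**Figure D3:**
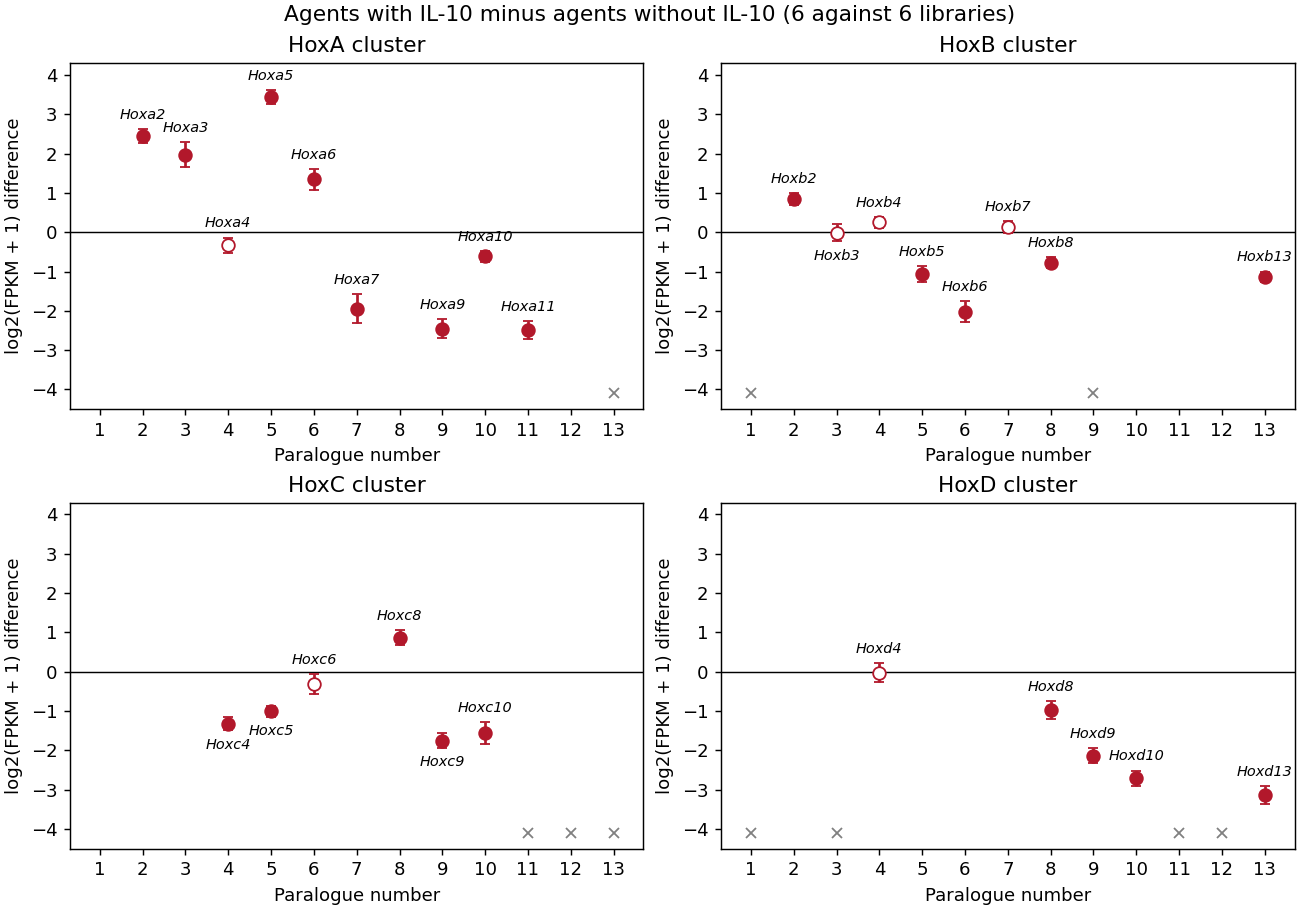
Difference in log2(FPKM + 1) between the 6 libraries with IL-10 and the 6 without, with its standard error, against paralogue number, 1 panel a cluster. Filled points were called, open points were not, and grey crosses at the bottom mark genes not tested. In all, 28 tested genes are drawn. HoxA passes from 3.44 at Hoxa5 to -2.49 at Hoxa11, and HoxD falls to -3.14 at Hoxd13.

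Among the anterior genes, Hoxa2, which gives the second pharyngeal arch its identity, was 0.43, 0.18 and 0.60 FPKM in the Ctrl-IgG libraries and 0.54, 0.49 and 0.67 FPKM in the aCSF1R libraries. It was 5.15, 4.34 and 8.83 FPKM in the IL-10-Fc libraries and 8.12, 10.1 and 7.02 FPKM in the BF10 libraries. The lowest library with IL-10 was thus far above the highest without it, and the log2 difference was 2.44 (SE 0.18, limma adjusted p = 3.31e-06). Hoxa3, needed for the thymus and parathyroid glands, was 0.29 to 1.36 FPKM without IL-10 and 2.96 to 12.6 FPKM with it (log2 difference 1.97, SE 0.32, limma adjusted p = 0.000487). The annotated Hoxa3 gene spans Hoxa4, Hoxa5 and Hoxa6 on the same strand, so part of its value may be reads of these genes, and this was not tested. Hoxb2, which acts in the hindbrain and in facial nerve cells, was low everywhere, at 0 to 0.09 FPKM without IL-10 and 0.37 to 1.39 FPKM with it (log2 difference 0.84, SE 0.15, limma adjusted p = 0.00103).

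Hoxb3, a further anterior gene, was not called and differed by -0.02 (95% interval -0.49 to 0.46). Hoxb1, Hoxd1 and Hoxd3 stayed at or below 0.11 FPKM in all 12 libraries and were not tested.

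The central gene Hoxa5, which patterns the neck, the upper trunk and the airways, was the Hox gene with the largest difference on the log2(FPKM + 1) scale. With a pseudocount of 0.1 it was 3.69, a smaller difference than those of Hoxd13 (-5.62), Hoxa11 (-4.98) and Hoxd10 (-3.81). It was 5.16, 2.82 and 4.74 FPKM in the Ctrl-IgG libraries and 4.50, 4.44 and 4.16 FPKM in the aCSF1R libraries. Its level was 61.4, 45.5 and 51.9 FPKM in the IL-10-Fc libraries and 79.5, 57.2 and 46.5 FPKM in the BF10 libraries. No library came near the other side, and the log2 difference was 3.44 (SE 0.18, limma adjusted p = 4.11e-07). Its neighbour Hoxa6, which acts in the thoracic skeleton, was 0.48 to 1.14 FPKM without IL-10 and 1.52 to 7.12 FPKM with it (log2 difference 1.34, SE 0.27, limma adjusted p = 0.00204). Hoxa7, the next gene of the cluster, went the other way. It was 26.3, 10.8 and 24.7 FPKM in Ctrl-IgG and 25.6, 23.3 and 25.4 FPKM in aCSF1R, against 1.79, 1.78 and 9.12 FPKM in IL-10-Fc and 3.85, 8.83 and 10.7 FPKM in BF10. The sides only just failed to meet, at Ctrl-IgG replicate 2 and BF10 replicate 3, and the log2 difference was -1.94 (SE 0.38, limma adjusted p = 0.00162). With IL-10, Hoxa7 was 1.78 to 3.85 FPKM at title codes 2 and 4 and 8.83 to 10.7 FPKM at codes 6 and 7. The mitochondrial share split these libraries in the same way, at 6.57 to 9.04% and 2.99 to 3.12%. Without IL-10, Ctrl-IgG replicates 1 and 2 shared code 1. Their Hoxa7 was 26.3 and 10.8 FPKM and their mitochondrial shares 3.00 and 7.19%. The part of the code and of the mitochondrial share in Hoxa7 was not tested. With the code as a numeric covariate the difference was -2.30.

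Ratios within a library show the turn between Hoxa6 and Hoxa7 without any scaling. The Hoxa6 level per unit of Hoxa7 was 0.019 to 0.061 without IL-10 and 0.427 to 1.03 with it. That of Hoxa5 per unit of Hoxa9 was 0.214 to 0.351 and 11.4 to 52.5, and that of Hoxa5 per unit of Hoxa10 was 0.132 to 0.289 and 3.44 to 6.76. Hoxa4, between Hoxa3 and Hoxa5, was not called, with 1.40 to 2.53 FPKM without IL-10, 0.48 to 2.23 FPKM with it and a log2 difference of -0.34 (95% interval -0.78 to 0.10).

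**Figure D4:**
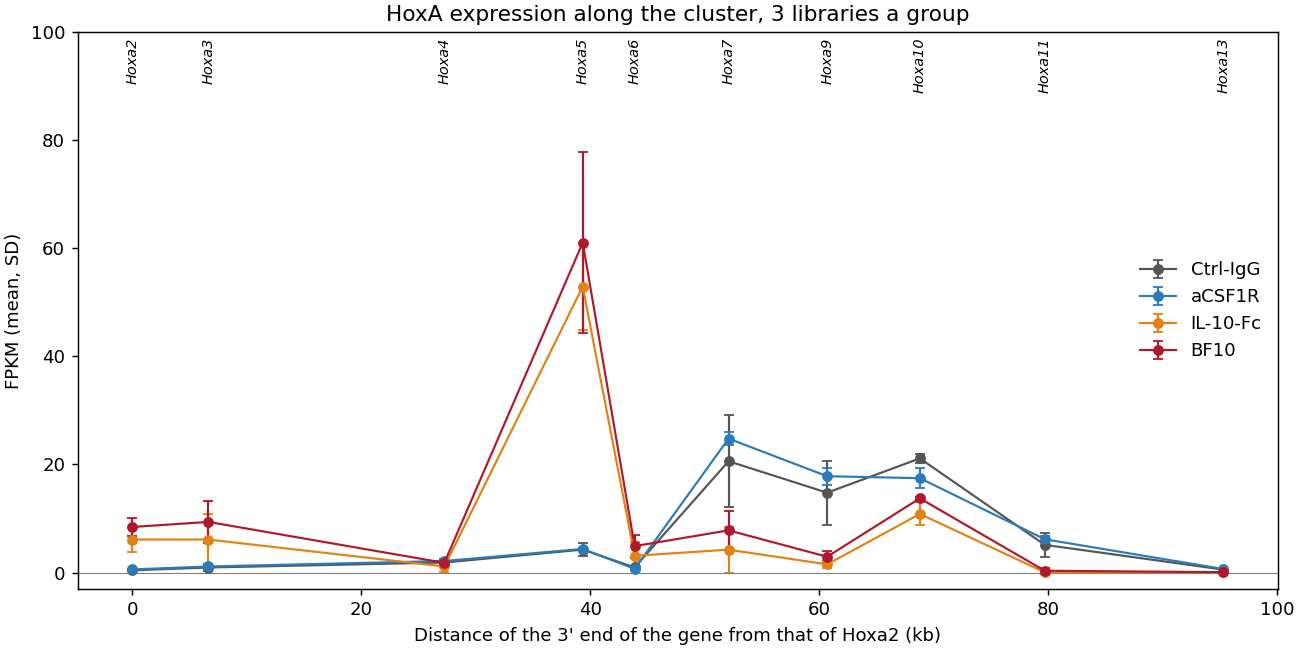
Mean FPKM and SD of 10 HoxA genes in the 4 groups (n = 3 libraries each) against the distance of its 3′ end from that of Hoxa2, in kb. The IL-10-Fc and BF10 lines peak at Hoxa5, where single libraries are 45.5 to 79.5 FPKM, and the Ctrl-IgG and aCSF1R lines are highest from Hoxa7 to Hoxa10.

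The central genes of the other clusters were mostly lower with IL-10. Hoxb6, expressed in trunk mesoderm, was 2.23 to 7.94 FPKM without IL-10 and 0.23 to 1.00 FPKM with it (log2 difference -2.02, SE 0.26, limma adjusted p = 0.000117). Hoxb5 differed by -1.07 (SE 0.20, limma adjusted p = 0.00134), Hoxc4 by -1.32 (SE 0.17, limma adjusted p = 0.000134) and Hoxc5 by -1.0 (SE 0.14, limma adjusted p = 0.000165). The Hoxc5 gene model spans Hoxc6, Hoxc8, Hoxc9 and Hoxc10, so its value may hold reads of these genes too. Hoxb8 (-0.78, SE 0.15, limma adjusted p = 0.00134) and Hoxd8 (-0.97, SE 0.23, limma adjusted p = 0.00537) were called although single libraries of the sides overlapped. Hoxc8, which sets thoracic vertebrae and the motor nerve cells of the forelimb, was the only central gene outside HoxA called higher. It was 0.06 to 0.23 FPKM without IL-10 and 0.39 to 2.02 FPKM with it (log2 difference 0.87, SE 0.18, limma adjusted p = 0.00259).

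Members of the same paralogue group did not move as one. In group 5, Hoxa5 was higher while Hoxb5 and Hoxc5 were lower. In group 6, Hoxa6 was higher, Hoxb6 lower and Hoxc6 not called (-0.32, 95% interval -0.88 to 0.25). In group 4, Hoxa4, Hoxb4 (0.25, 95% interval -0.05 to 0.55) and Hoxd4 (-0.02, 95% interval -0.56 to 0.52) were not called, and in group 7 neither was Hoxb7 (0.13, 95% interval -0.21 to 0.48).

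Among posterior genes, Hoxd13, which shapes the digits and the urogenital outlet, fell most. It was 11.0, 8.07 and 10.7 FPKM in the Ctrl-IgG libraries and 10.7, 9.08 and 8.79 FPKM in the aCSF1R libraries. It was listed at 0, 0.01 and 0.03 FPKM in the IL-10-Fc libraries and at 0.14, 0 and 1.66 FPKM in the BF10 libraries. Of the 6 libraries with IL-10, BF10 replicate 3 alone reached 1 FPKM. The log2 difference was -3.14 (SE 0.23, limma adjusted p = 3.22e-06), and with a pseudocount of 0.1 in place of 1 it was -5.62, since the added constant holds back the fall of a gene close to 0.

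Hoxd10, which acts in lumbar motor nerve cells and the hindlimb, was 11.7, 15.2 and 11.5 FPKM in Ctrl-IgG and 8.36, 7.12 and 6.92 FPKM in aCSF1R, against 0.66, 0.31 and 0.46 FPKM in IL-10-Fc and 0.68, 0.36 and 1.79 FPKM in BF10. The sides did not overlap (log2 difference -2.70, SE 0.19, limma adjusted p = 2.5e-06). Hoxd9 was 6.87 to 9.51 FPKM without IL-10 and 0.77 to 2.26 FPKM with it (-2.14, SE 0.19, limma adjusted p = 8.89e-06). HoxD as a whole summed to 34.3 to 41.3 FPKM without IL-10 and to 4.65 to 11.8 FPKM with it, and Hoxd8 was its highest gene in all 6 libraries with IL-10. The Hoxd8 level per unit of Hoxd10 was 0.677 to 1.36 without IL-10 and 2.21 to 16.4 with it.

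The posterior HoxA genes fell by differing amounts. Hoxa11, needed for the forearm, kidney and uterus, was 6.77, 2.52 and 6.07 FPKM in Ctrl-IgG and 6.74, 5.62 and 6.10 FPKM in aCSF1R, against 0, 0 and 0.11 FPKM in IL-10-Fc and 0.02, 0 and 0.96 FPKM in BF10 (log2 difference -2.49, SE 0.24, limma adjusted p = 1.48e-05). Hoxa9, a regulator of blood stem cells and of the lower trunk, was 8.04 to 19.5 FPKM and 1.09 to 4.09 FPKM (-2.45, SE 0.24, limma adjusted p = 1.81e-05). Hoxa10, which lies between them and acts in the uterus and lumbar spine, fell less, from 15.4 to 21.7 FPKM without IL-10 to 9.08 to 14.0 FPKM with it (-0.62, SE 0.13, limma adjusted p = 0.0034). Hoxa10 lost its call under 5 alternatives, among them median-of-ratios scaling, which gave -0.29. Hoxa13, at 0.46 to 0.83 FPKM and 0.03 to 0.09 FPKM, was below the test's filter on both sides, although its values did not overlap.

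**Figure D5:**
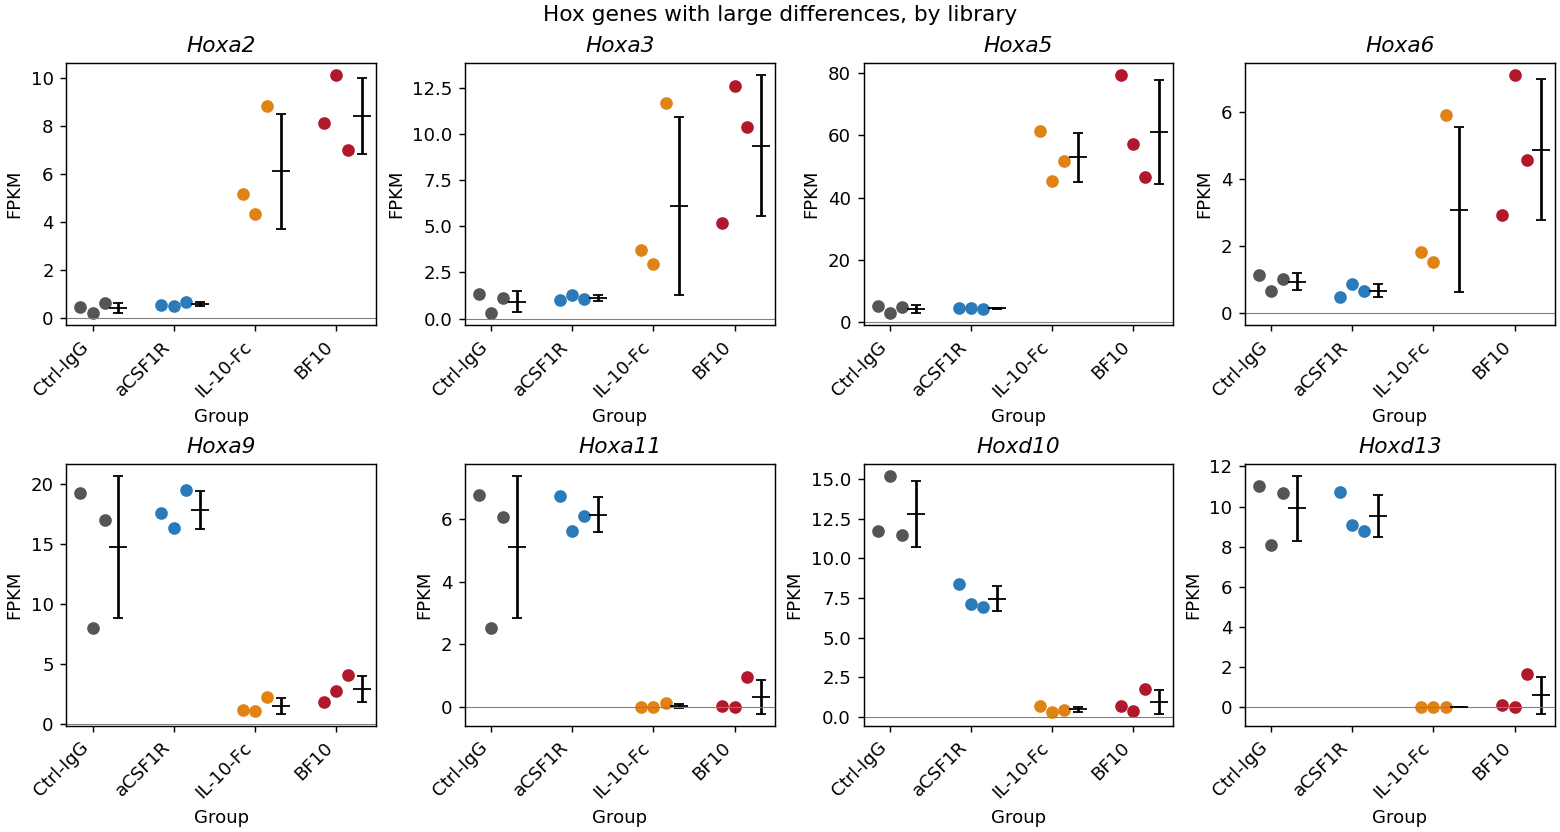
FPKM of Hoxa2, Hoxa3, Hoxa5, Hoxa6, Hoxa9, Hoxa11, Hoxd10 and Hoxd13 in each library (points), with the mean and SD of each group (n = 3), 1 panel a gene, each with its own axis. The upper range of each gene belongs to 1 side, and the BF10 point above the others in the Hoxa11 and Hoxd13 panels is replicate 3, at 0.96 and 1.66 FPKM.

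In HoxB and HoxC, the posterior genes were lower as well. Hoxb13, a gene of the tail region and the prostate, was 0.73 to 1.61 FPKM without IL-10 and 0 to 0.33 FPKM with it (-1.14, SE 0.13, limma adjusted p = 6.19e-05). Hoxc9 was 2.72 to 5.61 FPKM and 0.17 to 1.26 FPKM (-1.75, SE 0.19, limma adjusted p = 3.05e-05), and Hoxc10, a lumbar and hindlimb gene, 2.46 to 6.33 FPKM and 0.26 to 1.99 FPKM (-1.56, SE 0.27, limma adjusted p = 0.000893). Hoxb9 was the exception, with 0 to 0.10 FPKM without IL-10 and 0.13 to 1.49 FPKM with it, highest in IL-10-Fc replicate 3. It did not pass the filter and was not tested. The other 5 posterior genes outside HoxA that were not tested, Hoxc11, Hoxc12, Hoxc13, Hoxd11 and Hoxd12, were at most 0.35 FPKM in any library, and Hoxc12 was listed at 0 in all 12.

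BF10 replicate 3 stood apart from the other libraries with IL-10 in some of the posterior genes. Its Hoxa11 was 18.8% of the Ctrl-IgG mean, its Hoxb13 27.0%, its Hoxd13 16.7% and its Hoxd10 14.0%, while Hoxa11, Hoxb13 and Hoxd13 were at most 2.15% in each of the other 5. Its Hoxa13, at 11.2%, lay within the 5.59 to 16.8% of the others, and its Hoxa10, Hoxb9 and Hoxc10 did not stand apart. The Y-linked genes Eif2s3y and Ddx3y stood at 35.9% and 36.2% of the Ctrl-IgG mean in the same library. The link between these values was not tested. Without this library the difference between the sides was -3.36 for Hoxd13, -2.65 for Hoxa11 and -2.85 for Hoxd10, each still called, and 5 Hox genes were higher and 16 lower of 28 tested.

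Next, single groups were compared. Against Ctrl-IgG, BF10 had 6 higher Hox genes (11.8% of all genes tested were higher) and 12 lower (13.2%), and IL-10-Fc had 5 higher (10.1%) and 15 lower (23.6%). Against aCSF1R, BF10 had 6 higher (11.0%) and 15 lower (14.0%), and IL-10-Fc had 6 higher (11.0%) and 15 lower (31.2%). The last split was 3 higher and 16 lower on the TPM scale. These comparisons share groups with each other and with the comparison of the sides, so they are not separate evidence. In each of the 4, 5 genes were called higher (Hoxa2, Hoxa3, Hoxa5, Hoxb2 and Hoxc8) and 10 lower (Hoxa9, Hoxa11, Hoxb6, Hoxb13, Hoxc4, Hoxc5, Hoxc9, Hoxd9, Hoxd10 and Hoxd13). Of these, only Hoxa3, Hoxa5, Hoxa9 and Hoxd9 passed the filter on both sides. The others passed it through the side where they were higher, so their repeated calls add nothing to that selection. The share of all genes called in each of the 4 was not taken.

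The values of the leading genes lay close together across these comparisons. Set against Ctrl-IgG, the log2 difference of Hoxa5 was 3.56 in BF10 and 3.38 in IL-10-Fc, and set against aCSF1R it was 3.50 and 3.32 (SE 0.26 each). For Hoxd13 these were -2.90 and -3.42, and -2.86 and -3.37 (SE 0.33 each). All 8 were called.

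The groups on the same side differed in no Hox gene past the threshold. Between aCSF1R and Ctrl-IgG, limma called 0 of the 29 genes, as it called 0% of all genes, and 2 were under an unadjusted p of 0.05 (2.76% of all genes were). These were Hoxb8, at a log2 difference of 0.56 (95% interval 0.11 to 1.02), and Hoxd10, at -0.70 (95% interval -1.30 to -0.10). The Hoxa5 difference was 0.06 (95% interval -0.50 to 0.63) and that of Hoxd13 -0.05 (95% interval -0.77 to 0.68). All 29 intervals lay within -1.30 to 1.52, which is wide enough to hold a change past the fold used for calls.

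Between BF10 and IL-10-Fc, limma again called 0 of the 29 (0.0126% of all genes were called), and 1, Hoxb4, was under an unadjusted p of 0.05 (5.24% of all genes) with a log2 difference of 0.47 (95% interval 0.04 to 0.89). The widest gap was that of Hoxa7, at 0.94 (95% interval -0.23 to 2.11). Hoxa5 differed by 0.18 (95% interval -0.39 to 0.75) and Hoxd13 by 0.51 (95% interval -0.21 to 1.24). The limma test of whether the BF10 libraries departed from the sum of the 2 components called 0 Hox genes (0.00632% of all genes were called), and 2 were under an unadjusted p of 0.05 (2.61% of all genes were). Of these, Hoxd10 departed by 1.03 (95% interval 0.19 to 1.88).

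Some transcripts inside the clusters that are not Hox genes differed too. Of 46 such genes annotated, 11 were tested, with 2 called higher and 5 lower, beside 14.6% higher and 28.6% lower among all genes tested. The antisense transcript Hoxaas2, which overlaps the Hoxa3 gene, was 0.06 to 0.51 FPKM without IL-10 and 3.65 to 5.26 FPKM with it (log2 difference 2.17), and Gm15050 of the same stretch 0.51 to 1.31 and 5.46 to 11.3 FPKM (2.33). Hoxa11os, antisense to Hoxa11, was 4.96 to 9.92 FPKM and 0 to 1.59 FPKM (-2.71), and Hoxd3os1 in HoxD was 8.12 to 10.7 and 1.94 to 4.28 FPKM (-1.27). Hoxaas2, Gm15050 and Hoxa11os passed the filter on 1 side alone, so their calls add nothing to that selection. Hoxaas3, antisense to Hoxa5, Hoxa6 and Hoxa7, was 4.59 to 6.23 and 2.12 to 3.14 FPKM (-0.85), against the direction of Hoxa5 and Hoxa6. The library kit keeps strand, but the strand setting of the counting is not given in the sources used here, so for the 14 Hox genes with an antisense gene over them the share of reads on each strand is unknown.

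The proteins that bind DNA with Hox factors were next. Of the 9 TALE homeobox genes listed, 8 were tested, with 1 called higher and 4 lower (median log2 difference -0.68), beside 14.6% and 28.6% of all genes. Meis2 (-2.03), Meis3 (-2.01), Pbx4 (-1.38) and Pbx3 (-0.97) were lower. Of 26 upstream and chromatin regulators of Hox genes, 20 were tested, with 0 higher and 4 lower (median -0.27), both below the share of all genes called (14.6% and 28.6%). These were the retinoic acid enzymes Aldh1a1 (-3.34) and Aldh1a3 (-1.05) and the Polycomb subunits Cbx7 (-2.17) and Cbx8 (-1.10).

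Other genes that record position were lower on the same side. Of 23 head and jaw genes, 12 were tested, with 0 higher and 9 lower (median -1.0), and of 13 trunk and limb genes, 8 were tested and 8 were lower (median -1.48), beside 28.6% of all genes. Alx1, a gene of the facial mesenchyme, was 10.6 to 18.3 and 0 to 1.36 FPKM (-3.52), and Foxf1, of the gut and lung mesenchyme, 17.3 to 32.6 and 1.01 to 6.12 FPKM (-3.16). Pax9, needed for teeth, was 1.40 to 5.35 and 0 to 0.77 FPKM (-2.14), and Pax3, of neural crest and muscle precursors, 2.59 to 8.13 and 0 to 1.16 FPKM (-2.69). BF10 replicate 3 held the highest value of its side for all 4 of these genes. Of the 4, only Foxf1 passed the filter on both sides, so the calls of Alx1, Pax9 and Pax3 add nothing to that selection. The libraries without IL-10 thus expressed posterior Hox genes and head and jaw genes together, in the same bulk tissue.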

How the data were processed

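The authors made stranded mRNA libraries (TruSeq), sequenced them on a NextSeq and used the mouse genome mm10 (GRCm38). The submitters' processing notes name STAR 2.7.5a, RSEM 1.3.3 and DESeq2 1.30.0, without their roles. The authors deposited 1 table of FPKM values per gene and library, which was used here, and 4 tables of their own comparisons from DESeq2 (base mean, log2 fold change, its error and p-values), which were not used.

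Groups came from the labels. Values were transformed as log2(FPKM + 1). Genes at 1 FPKM or more in at least 3 libraries were fitted with limma 3.58.1 (R 4.3.3, empirical Bayes with an intensity trend), all 12 libraries in 1 model, with Benjamini-Hochberg adjustment over 15813 genes. The script was tested on simulated data. FPKM carry no read depth, so no counting error was given. Positions came from GENCODE M21 (all 39 Hox genes matched) and promoters from RefSeq (22 of 39). Any Hox gene, any called member of the lists and any gene inside a cluster could be named. The members and lists were chosen with earlier results of these data known. Another pseudocount, other filters and scalings, covariates, fits of the compared groups alone and leaving out each library were tried. Values of some members are not reported here.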

Additional observations from a re-analysis of the deposited data

How the results depend on the processing

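The number of Hox genes called between the sides stayed between 17 and 22 over all alternatives, and between 20 and 22 when each library was left out in turn. In the comparisons of groups it stayed within 1.5 times of the reported number (13 to 21 for BF10 and 14 to 21 for IL-10-Fc against Ctrl-IgG, 16 to 21 and 16 to 22 against aCSF1R), and was 0 throughout for aCSF1R against Ctrl-IgG and for BF10 against IL-10-Fc. The exception was the fit without the 3 libraries of highest stratified epithelium sum (Ctrl-IgG replicate 3, aCSF1R replicates 1 and 2), which leaves aCSF1R with 1 library, assumed to vary like the other groups. It called 17 Hox genes between the sides (6 higher, 11 lower), 9 for BF10 and 11 for IL-10-Fc against Ctrl-IgG, and 6 and 9 against aCSF1R, with fewer libraries and 26 genes tested. This fit and that without the 4 libraries of highest FPKM sum were chosen after seeing the data. With the title code as a covariate 22 genes were called between the sides. Of the 22 genes called between the sides, 20 kept their call wherever they could be fitted. Hoxa10 lost it with median-of-ratios scaling (-0.29), with the FPKM sum as a covariate (-0.57), without IL-10-Fc replicate 1 (-0.56), without the 4 libraries (-0.48) and without the 3 libraries (-0.69), and Hoxd8 with median-of-ratios scaling (-0.66) and without the 3 libraries (-1.01). The cause was not tested. Hoxb2, Hoxc8 and Hoxb13 fell out of the fit under a filter on a mean of 1 FPKM. Leaving out 1 library removed Hoxb2 and Hoxc8 (IL-10-Fc replicate 3 or BF10 replicate 2), Hoxb2 alone (BF10 replicate 1) or Hoxc8 alone (BF10 replicate 3), since each reached 1 FPKM in 3 libraries.

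Only members that were not called turned direction. For Hoxb3 the difference became 0.126 with median-of-ratios scaling, 0.211 with the FPKM sum as a covariate, 0.182 without the 4 libraries, 0.069 without the 3, and -0.155 to 0.116 when 1 library was left out. For Hoxd4 these were 0.125, 0.215, 0.194, 0.20 and -0.172 to 0.123. Hoxb7 became -0.012 without the 4 libraries.

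The mean number of Hox genes expressed moved with the level that counts as expressed. At 2 FPKM, BF10 had 10.33, IL-10-Fc 7.67, aCSF1R 18.33 and Ctrl-IgG 15.33. At 0.5 FPKM, BF10 had 25.0, IL-10-Fc 19.0, aCSF1R 27.33 and Ctrl-IgG 26.0, and at 1 TPM, BF10 had 22.67, aCSF1R 25.33 and Ctrl-IgG 23.0, so that BF10 and Ctrl-IgG lay closer than at 2 FPKM. No paired analysis was possible because the replicate numbers only name the libraries, and the title codes, whose meaning is not given, join groups at 1 code only. FPKM do not give the read depth, so differences among genes below about 1 FPKM have no counting error here.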
